A study of Homo sapiens with 63 samples.

Results

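H526 is a human small cell lung cancer (SCLC) cell line of the variant kind, in which the neuroendocrine features of classic SCLC are reduced. Its 7 arrays were compared with the 56 arrays of the other 8 SCLC lines of the panel (H69, H128, H146, H187, H209, DMS53, DMS114 and DMS153), out of 63 arrays in all, and were taken by the line named in the sample titles. Each line gave 1 array in each of 7 conditions: untreated control (Con), the PARP inhibitor veliparib at 5 µM (A5) or 50 µM (A50), cisplatin alone at the line's own IC50 (C+0), cisplatin with veliparib at 5 µM (C+5) or 50 µM (C+50), and ionizing radiation of 2 Gy (gamma). The IC50 dose of cisplatin was 0.4 µM in H526 and ran from 1.7 to 14.5 µM in the other 8 lines, so the cisplatin arms were matched by effect and not by concentration. No line had a second array of any condition, so the replicate in every test was the line, and H526 was 1 line, assumed to vary as the other 8 did. According to the study's methods the identity profile of H128 did not match its reference, which limits that line as a model of its name.

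Tuft cells are rare chemosensory epithelial cells of the airway and gut. The transcription factor POU2F3 is required to form them, and its coactivator POU2AF2 (also OCA-T1) binds it at octamer DNA motifs. Their signalling runs from taste-type receptors through a G protein, phospholipase C and the cation channel TRPM5, and they release interleukin 25, acetylcholine and eicosanoids. A subset of SCLC carries this programme in place of the neuroendocrine programme, and H526 is a standard model of that subset. MYCN, a MYC family transcription factor on the short arm of chromosome 2, is amplified in some SCLC lines, and H526 is known as one of them. Copy number was not measured here.

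Because POU2F3 reads the octamer ATGCAAAT, the 250 bases upstream of the annotated start (RefSeq, GRCh38.p14) were searched for it on both strands. It was present in 596 of 27191 genes with such a window (2.19%), in 3 of the 29 tuft cell genes with a window (10.3%), and in 8 of the 102 genes with a window among those called higher in H526 (7.84%). Of the 3 tuft cell genes, BMX was not analysed here, FYB1 was detected on too few arrays, and HMX2 was not called. None of the 8 genes called higher was in the tuft cell list. A match describes these letters only, since binding was not measured. The windows of 4 genes of the results are shown with the octamer in capitals, 5′ to 3′ on the strand of the gene.
HMX2 (chr10:123147886-123148135, + strand): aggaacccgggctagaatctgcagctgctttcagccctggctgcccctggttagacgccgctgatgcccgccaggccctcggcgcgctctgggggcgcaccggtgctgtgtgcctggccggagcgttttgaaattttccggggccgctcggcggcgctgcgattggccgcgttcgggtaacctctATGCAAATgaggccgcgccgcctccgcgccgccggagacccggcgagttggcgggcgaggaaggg
MAP4K1 (chr19:38617954-38618203, - strand): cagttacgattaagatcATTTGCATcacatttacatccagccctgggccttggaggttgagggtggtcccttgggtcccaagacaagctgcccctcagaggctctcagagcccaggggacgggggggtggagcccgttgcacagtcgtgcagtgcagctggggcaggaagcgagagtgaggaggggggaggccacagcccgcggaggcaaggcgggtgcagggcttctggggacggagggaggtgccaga
AVIL (chr12:57818735-57818984, - strand): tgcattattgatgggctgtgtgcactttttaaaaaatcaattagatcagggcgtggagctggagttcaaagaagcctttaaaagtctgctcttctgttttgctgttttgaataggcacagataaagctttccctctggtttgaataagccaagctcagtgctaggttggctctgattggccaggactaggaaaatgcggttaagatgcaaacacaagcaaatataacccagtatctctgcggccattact
IRAG2 (chr12:25052456-25052705, + strand): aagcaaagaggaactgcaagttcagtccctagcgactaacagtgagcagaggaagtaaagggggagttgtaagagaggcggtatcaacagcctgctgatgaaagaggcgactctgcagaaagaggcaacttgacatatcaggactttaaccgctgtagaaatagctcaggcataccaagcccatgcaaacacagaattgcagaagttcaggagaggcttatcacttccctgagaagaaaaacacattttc
In HMX2, a homeobox gene of the tuft cell list, the octamer lay 65 to 58 bases upstream of the start. In MAP4K1, a blood cell kinase gene that was higher in H526, its reverse complement lay 233 to 226 bases upstream. The windows of AVIL and IRAG2, which rank among the most different genes of H526, held no octamer, and the other 2 annotated windows of IRAG2 held none either.

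Signals were quantile-normalized and are given as log2 values without background subtraction, so a transcript that is not measured reads between about 6.4 and 6.6 and not 0. The lowest signal that counted as detected lay between 6.65 and 6.71 on the 63 arrays. Differences against lines near this floor are therefore understated. Of 47217 probes, 30716 were detected on at least 4 arrays and were tested. Between 19124 and 21319 probes were detected on the H526 arrays, and between 19133 and 22330 on those of the other lines. Over all kept probes the nearest line to H526 was H187, at a distance of 93.14, against a mean distance of 100.59 to the 8 lines.

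Expression in H526 differed from the other 8 lines at 228 of 30716 probes (0.742%, limma on line means, adjusted p under 0.05). Of these, 227 were higher in H526 (0.739% of all probes tested) and 1 was lower (0.00326%). An unadjusted p below 0.05 was found at 1155 of 30716 probes, a smaller share than the 0.05 that the threshold alone would give. By a rule without a model, all 7 H526 arrays lay above all 56 other arrays at 758 probes (2.47%) and below all of them at 145 probes (0.472%), 903 in all (2.94%). At the level of 1 probe per gene these shares were 3.15% of genes above and 0.699% below. The filter admits probes detected on the H526 arrays alone, which can add to the count above but not to that below. Under a stricter filter (detection p below 0.01 on at least 32 arrays) 450 probes lay above and 144 below, of 17075. Detection of the called probes in the other lines varied. Of the 228, 222 were detected on all 7 H526 arrays, 51 were detected on none of the 56 other arrays and 100 on at most 5, and 57 on more than 28. The other 8 lines varied little at them, with a median SD of line means of 0.061 against 0.217 over all kept probes. Where the other lines were not detected, that SD is the spread of background readings, and the SE and adjusted p rest on it. The stricter filter kept 42 of the 228 probes, and 6 of these were still called. At the probes where all H526 arrays lay below the others that median SD was 0.376, and the test asks for a larger difference where the other lines vary more.

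**Figure D1:**
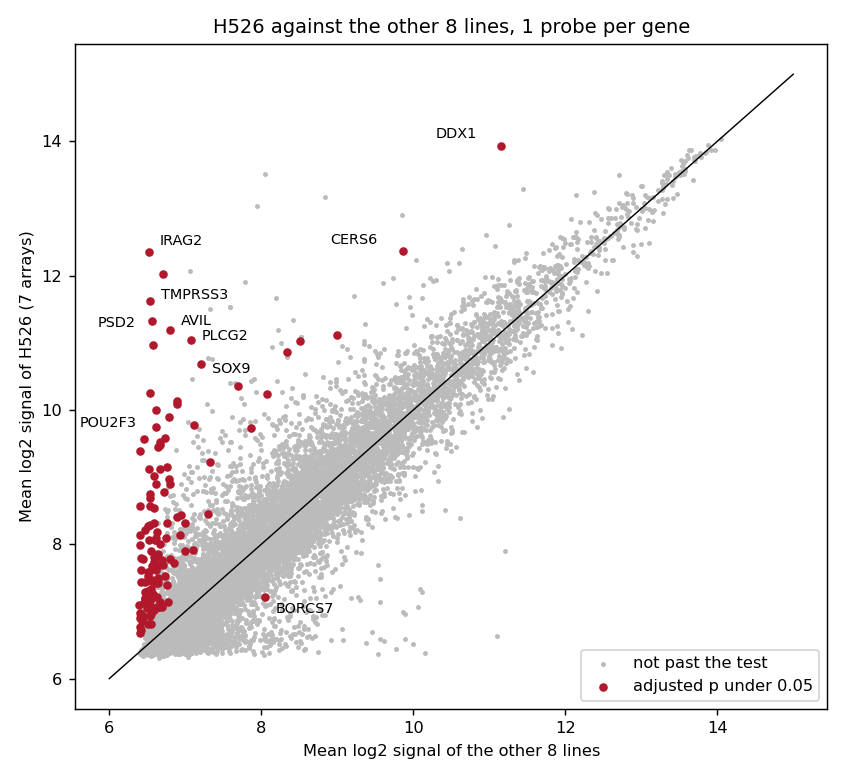
Mean log2 signal of H526 over its 7 arrays (vertical axis) against the mean of the other 8 lines (horizontal axis), 1 point per gene, with genes past the test in red. Most red points stand at the left, where the other lines read below 7, DDX1 and CERS6 are exceptions with high signal in every line, and BORCS7 is the single red point under the diagonal.

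The tuft cell programme was the group with the most genes called. It includes POU2F3, a marker named for this line beforehand, and its members were chosen with earlier results of these data known. Its lead over the other lists is therefore a description and not a test. Of 41 genes in the list, 3 were not analysed here, 5 were under the detection filter (among them SH2D7, HPGDS and CHAT) and 33 were kept. Of the kept genes 12 were higher in H526 past the test and none was lower, beside 0.847% of all genes called higher and 0.00647% called lower. The median difference of the 33 genes was 0.82 on the log2 scale, against -0.02 over all genes. H526 was the highest of the 9 lines for 24 of the 33 genes and the lowest for none, beside 8.84% and 7.55% of all genes. However, 5 of the 33 genes, IRAG2, RGS13 and ANXA1 among them, were detected on fewer than 4 other arrays and passed the filter only through H526, so that their rank was set by it. Of the other 28 genes, H526 was the highest line for 19 and 9 were called higher, with a median difference of 0.75. POU2F3 and GFI1B are among these 28, although they were detected on only 7 and 6 of the 56 other arrays, near the floor. Over all 15296 genes detected on 4 or more other arrays, H526 was the highest for 8.24% and 0.575% were called higher.

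POU2F3, the factor that specifies tuft cells, read 9.68 in untreated H526, 9.71 in A5, 9.78 in A50, 9.79 in C+0, 9.87 in C+5, 9.80 in C+50 and 9.54 after radiation. The other lines read between 6.58 and 6.65, and no single array of theirs exceeded 6.77. POU2F3 was thus on in H526 in every condition and at the floor elsewhere, with detection on 7 of 56 other arrays. The difference was 3.13 (SE 0.04, adjusted p = 4.73e-09), and by matched condition it ran from 2.94 to 3.26. POU2AF2, its coactivator, read 8.56, 8.64, 8.63, 8.52, 8.59, 8.45 and 8.56 in the same order of conditions, against line means of 6.48 to 6.70, so that its groups did not overlap either. That difference was 2.03 (SE 0.08, adjusted p = 3.73e-06). POU2AF1, the B cell coactivator of the same family, was not detected on any H526 array and read 8.42 in DMS53 and 8.28 in DMS153. POU2AF3, a further family member that is also in the tuft cell list, was not called at its probe of highest mean signal.

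Further transcription factors of tuft cells were higher in H526. GFI1B, a zinc finger repressor, read from 7.64 to 7.83 with a median of 7.73, against line means of 6.54 to 6.67. It differed by 1.15 (SE 0.05, adjusted p = 1.6e-05). SPIB, an ETS factor of immune and M cells, read from 7.61 to 7.96 with a median of 7.83, against line means of 6.56 to 6.61, a difference of 1.22 (SE 0.04, adjusted p = 1.77e-06). For both genes the H526 arrays stood clear of all others. SOX9, an epithelial progenitor factor, read 10.77, 10.79, 10.65, 10.58, 10.65, 10.61 and 10.75 in H526 and at most 8.11 on another array. Its difference of 3.47 (SE 0.53, adjusted p = 0.029) did not pass after background subtraction by neqc (adjusted p = 0.304), and without H128, H146, H187 or DMS153 its adjusted p lay between 0.0535 and 0.068. ASCL2, a basic helix-loop-helix factor of this SCLC subset, read from 11.39 to 11.69 with a median of 11.53, above every other array. DMS53 at 9.98 and DMS153 at 9.19 also expressed ASCL2, and its difference of 3.94 (SE 1.29) did not pass the test (adjusted p = 0.724). HMX2 showed the same pattern, with 10.66 to 10.94 in H526, at most 8.59 on any other array and a difference of 3.48 (SE 0.81, adjusted p = 0.229).

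Effector genes of tuft cells stood out further. IRAG2 (also LRMP), an endoplasmic reticulum membrane protein, read 12.41 untreated, 12.49 in A5, 12.34 in A50, 12.22 in C+0, 12.28 in C+5, 12.48 in C+50 and 12.27 after radiation. It was detected on none of the 56 other arrays, whose highest reading was 6.65. Since the other lines gave only an upper limit, the level of IRAG2 in H526 was at least 51.2-fold higher, and the fitted difference of 5.84 (SE 0.05, adjusted p = 2.36e-10) was the largest of all called probes with 1 named gene. AVIL, which encodes the actin-bundling protein advillin, read 11.16, 11.10, 11.11, 11.15, 11.22, 11.19 and 11.40. DMS53 had the next highest line mean at 7.44, and the groups did not overlap. The difference of AVIL was 4.39 (SE 0.27, adjusted p = 9.48e-05).

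PLCG2, a phospholipase C, read from 10.88 to 11.17 with a median of 11.06, above DMS114 at 8.25 and the remaining lines at 7.42 or less. It differed by 3.97 (SE 0.57, adjusted p = 0.0202), and this did not pass under neqc (adjusted p = 0.169). ANXA1, a phospholipid-binding annexin, read 9.93, 9.59, 9.34, 9.46, 9.72, 9.42 and 9.55, highest in the untreated cells. It was detected on 1 of 56 other arrays and differed by 3.11 (SE 0.08, adjusted p = 3.24e-07). RGS13, a regulator of G protein signalling, read 9.42 untreated and 8.99 to 9.21 in the 6 treated arrays, and was detected in no other line. Its level was at least 5.43-fold higher (fitted difference 2.59, SE 0.04, adjusted p = 1.37e-08). The adaptor SH2D6 (difference 0.67, adjusted p = 0.0016) and the taste-type G protein subunit GNG13 (difference 0.43, adjusted p = 0.00294) were higher by less, with H526 medians of 7.24 and 7.0 that were still above all other arrays.

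Eicosanoid enzymes of this list gave mixed readings. PTGS1, cyclooxygenase 1, was called at one of its probes (difference 1.21, adjusted p = 4.91e-06) and not at the probe of highest mean signal (difference 0.23, adjusted p = 0.107). ALOX5, the 5-lipoxygenase, was detected on 3 of 7 H526 arrays and differed by 0.08. PLA2G4A, the cytosolic phospholipase that releases arachidonic acid, was not in the list, but was called outside it. It read from 9.02 to 9.86 in H526 and was detected on no other array, a level at least 6.54-fold higher (fitted difference 2.98, adjusted p = 4.73e-09).

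Several well-known tuft cell genes did not pass the test. TRPM5, the channel of the taste cascade, was detected on all 7 H526 arrays at 6.94 to 7.06, and DMS153 followed with a mean of 6.89 and an array at 7.0. DCLK1, a kinase often used to mark tuft cells in the mouse gut, read 8.85 to 9.05 in H526 and was higher in H146 (10.35), H69 (9.64) and H209 (9.29). IL17RB, a subunit of the interleukin 25 receptor, read 11.48 to 11.63, above all other arrays, and its difference of 3.94 (SE 0.75) did not pass the test (adjusted p = 0.0882). The adjusted p of IL17RB was 0.0182 without DMS153, in which it read 9.02. KIT, a receptor tyrosine kinase, read 11.55 to 11.80 in H526, above H187 at 10.42 and DMS153 at 10.04, with a difference of 3.48 (SE 1.43, adjusted p = 1). CHAT, which makes acetylcholine, was detected on 1 of 7 H526 arrays and was not tested.

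**Figure D2:**
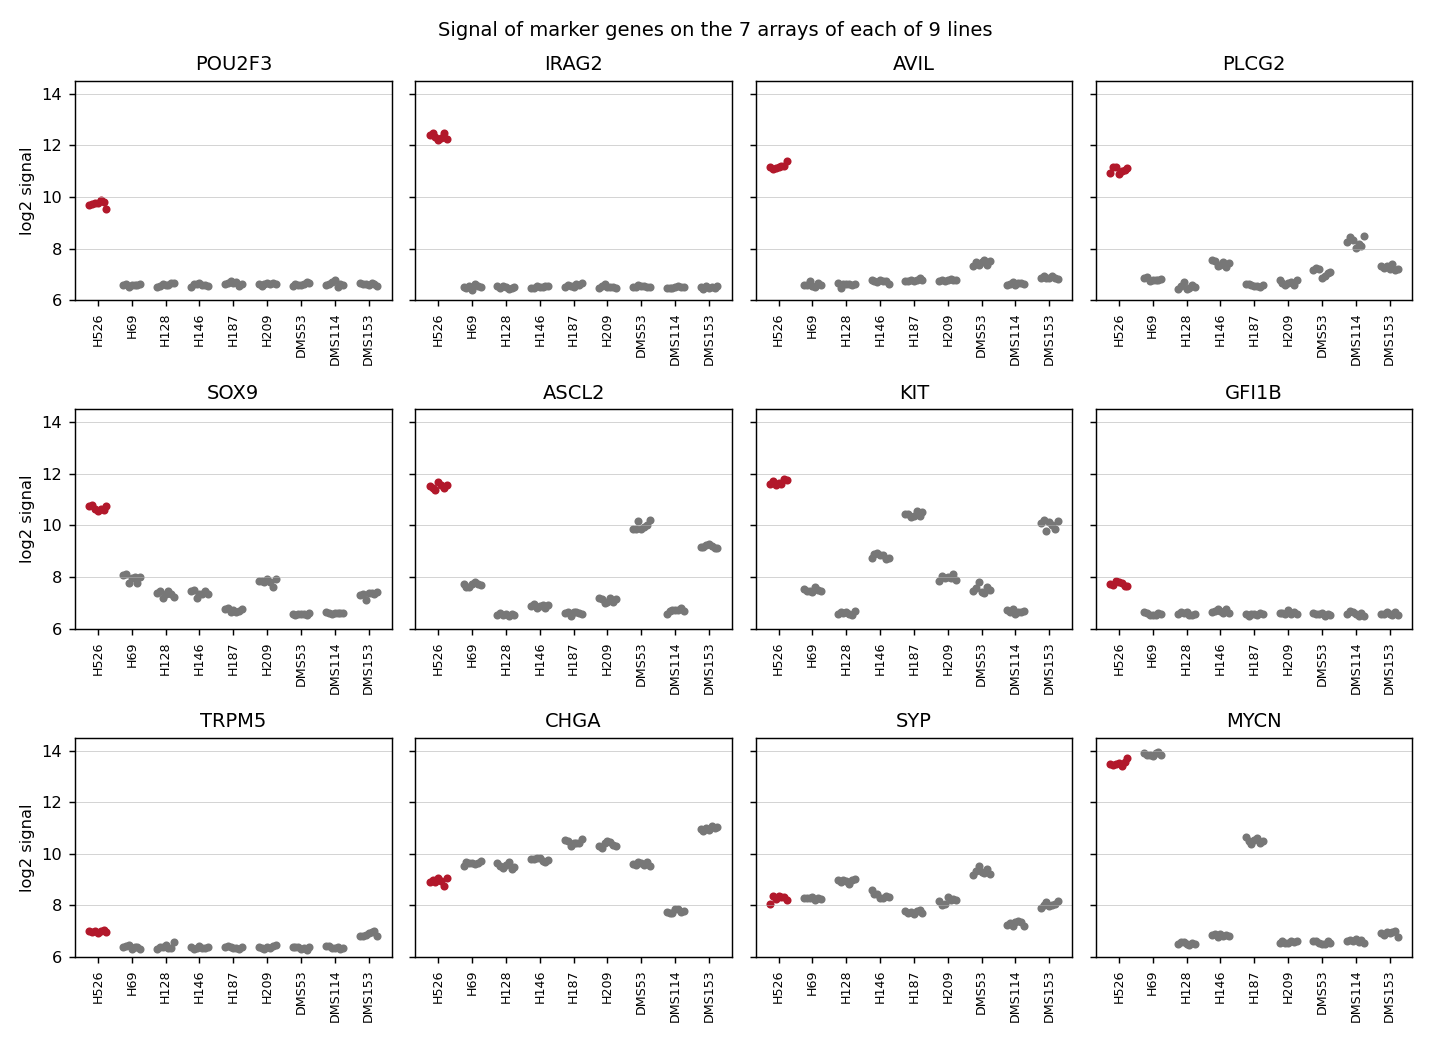
Log2 signal (vertical axis, shared scale) of 12 marker genes on each of the 7 arrays of each line, with H526 in red and conditions in the order Con, A5, A50, C+0, C+5, C+50 and gamma. POU2F3, IRAG2, AVIL and GFI1B are high in H526 alone, ASCL2 and KIT are also raised in other lines, CHGA and SYP overlap the other lines, and MYCN is shared with H69 and in part H187.

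Outside the tuft list, the genes with the largest differences belonged to no single class. ALKAL1, a ligand of the receptor ALK, read from 11.92 to 12.12 with a median of 12.02 and at most 7.80 on any other array (difference 5.32, SE 0.39, adjusted p = 0.000276). TMPRSS3, a membrane serine protease, read from 11.40 to 11.90 with a median of 11.56 and at most 7.05 elsewhere (difference 5.08, SE 0.22, adjusted p = 7.28e-06), although 1 of its 4 probes differed by only -0.01. PSD2, a nucleotide exchange factor for ARF6, read from 11.24 to 11.50, with 6.82 as the highest other array. No other line exceeded a mean of 7.66 for any of these 3 genes. The difference of PSD2 was 4.76 (SE 0.09, adjusted p = 4.03e-08).

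SRL (sarcalumenin, a muscle calcium-binding protein) differed by 4.40, CRYM (a thyroid hormone-binding crystallin) by 3.94, OMG (a myelin glycoprotein) by 3.72 and MAP4K1 by 3.10, each past the test with non-overlapping arrays. COL11A1, a fibrillar collagen chain, differed by 3.38 (adjusted p = 0.00534, and 0.0501 under neqc). LY6H, a membrane protein of the nervous system, differed by 3.24 (adjusted p = 0.029). Its call was lost under neqc (adjusted p = 0.157), and its adjusted p was 0.0588 to 0.0685 without H69, H128, H146, H187, H209, DMS53 or DMS153. Secreted or membrane signalling proteins among the called genes were BMP7 (2.81), HBEGF (2.67), the TNF family members TNFSF8 (2.46) and CD70 (2.40), and TFF1, a mucosal trefoil peptide detected in no other line (at least 2.76-fold higher). TFAP2C, an AP-2 transcription factor, differed by 2.69, RUNX2, a skeletal transcription factor, was at least 2.94-fold higher, and AFP, the fetal plasma protein alpha-fetoprotein, differed by 2.15. The call of HBEGF (adjusted p = 0.0454) was lost under neqc (0.277), and that of BMP7 was kept (0.0313).

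CERS6 and GRK5 differed from most called genes in that every other line expressed them. CERS6, a ceramide synthase, read 12.18, 12.38, 12.51, 12.33, 12.31, 12.54 and 12.31 in H526 against line means of 9.30 to 10.30. It was higher by 2.50 (SE 0.33, adjusted p = 0.0115), with detection on all 56 other arrays. GRK5, a G protein-coupled receptor kinase, read 10.25 to 10.44 against line means of 7.03 to 8.09 and was higher by 2.67 (SE 0.35, adjusted p = 0.0111, and 0.0623 under neqc).

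MYCN itself did not separate H526 from the panel. It read 13.48 untreated, 13.47 in A5, 13.48 in A50, 13.51 in C+0, 13.42 in C+5, 13.55 in C+50 and 13.71 after radiation. H69 was higher with a mean of 13.87, H187 read 10.51, and the remaining 6 lines read 6.52 to 6.91. The difference from all 8 lines was 5.46 with an SE of 2.69 (adjusted p = 1). The antisense transcript MYCNOS read 10.66 in H69, 9.82 in H526 and 6.80 in H187, followed by the other lines at 6.53 or less.

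Genes beside MYCN did separate H526. DDX1, an RNA helicase gene next to MYCN that is often amplified with it, read 13.88, 13.97, 13.97, 13.94, 13.88, 13.97 and 13.95 in H526. The other 8 lines read 10.82 to 11.45, with H69 at 10.94 and H187 at 11.39, so DDX1 was high in H526 and not in the other MYCN-expressing lines. Its difference was 2.79 (SE 0.27, adjusted p = 0.00159). NBAS, the next gene outward, read 9.14 to 9.28 against line means of 7.04 to 7.62 (difference 1.90, SE 0.23, adjusted p = 0.00655). On the other side CYRIA, a RAC1-binding protein gene, read 7.40 to 7.64 against 6.68 to 6.78 (difference 0.79, SE 0.05, adjusted p = 0.000126). APOB, a distant gene of the same arm, was at least 1.23-fold higher. These were the 4 of 32 kept genes of the 2p list that passed, beside 0.847% of all genes called higher, and the median difference over the list was 0.00. APOB was detected on none of the 56 other arrays, so it passed the filter only through H526. NBAS and DDX1 were detected on all 56 and CYRIA on 46. Of all genes detected on 4 or more other arrays, 0.575% were called higher. Of the neighbours farther out, VSNL1 was highest in H526 without passing the test.

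**Figure D3:**
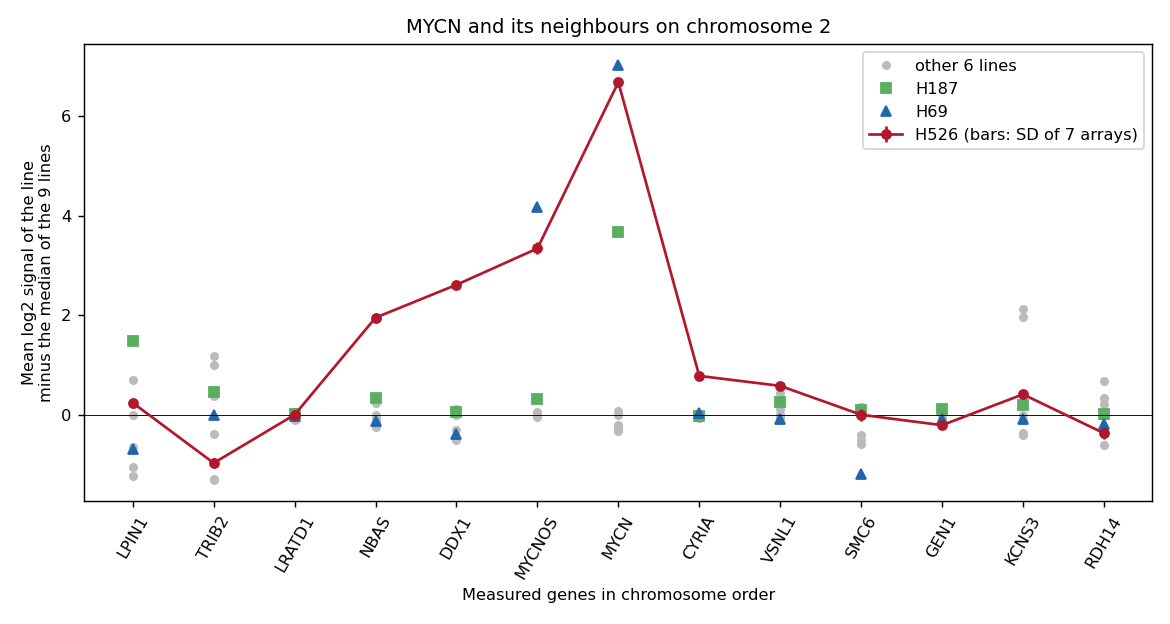
Mean log2 signal of each line minus the median of the 9 lines (vertical axis) for MYCN and measured neighbours in chromosome order (horizontal axis, not to distance), with H526 in red, H69 in blue, H187 in green and the other 6 lines in grey. NBAS and DDX1 are raised in H526 alone, MYCNOS in H526 and H69, and MYCN in H526, H69 and H187.

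Other members of the MYC family were not expressed in H526. MYC read 6.51 to 6.64, at the floor, while H128 reached a mean of 12.37, and MYCL read 6.47 to 6.67 with up to 10.28 elsewhere. The 38 kept MYC target genes (ribosome biogenesis, nucleotide synthesis and metabolism) had a median difference of 0.02, and none was called in either direction.

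Neuroendocrine genes were on the whole lower in value. Of 45 kept genes, 0 were called, beside 0.847% of all genes called higher and 0.00647% called lower, so the count says little about the list. In it 13 genes had a positive and 32 a negative difference, and the median was -0.55 against -0.02 over all genes. SYT4, a vesicle synaptotagmin, read 6.31 to 6.45 and was detected on no H526 array but on all 56 others. All H526 arrays of SYT4 lay below the others, and the difference was -3.77 (SE 1.57, adjusted p = 1), since line means elsewhere spread from 6.96 to 12.03. VGF, a secreted neuropeptide precursor, read 7.17 to 7.48 and was below all other arrays as well (-2.76, SE 0.90, adjusted p = 0.724).

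Several neuroendocrine products that some other lines expressed at high levels were at or near the floor in H526. GRP, gastrin-releasing peptide, read 6.33 to 6.39 in H526 and up to 13.55 elsewhere. DDC, dopa decarboxylase, read 6.35 to 6.56 with line means up to 11.77. The LIM-homeobox factor ISL1 and the granin SCG2 had H526 means of 6.59 and 6.99 with up to 12.38 and 12.57 elsewhere. SCG2 was detected on all 7 H526 arrays and was lower in H128 (6.78) and DMS114 (6.58). General markers of the lineage were nevertheless present. CHGA, chromogranin A, read 8.76 to 9.06 on the H526 arrays, below 7 line means and above DMS114 at 7.78. SYP (synaptophysin) differed by -0.01, NCAM1 by 0.28 and INSM1, a neuroendocrine zinc finger factor, by -0.81. Those 4 genes were detected on all 7 arrays of H526.

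**Figure D4:**
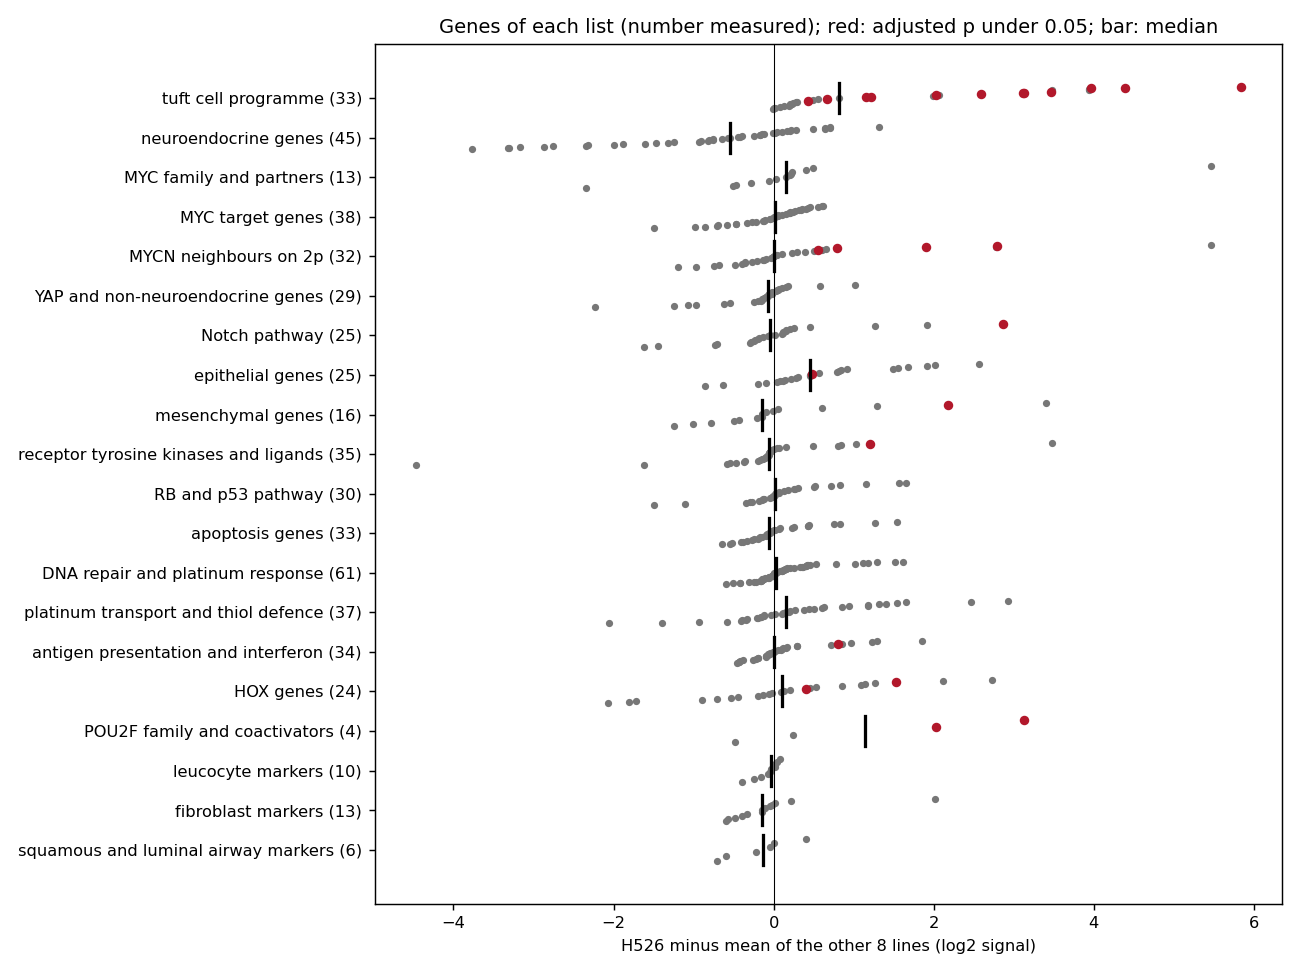
Difference of H526 from the mean of the other 8 lines (horizontal axis, log2 signal) for every kept gene of 20 lists, 1 point per gene, with the number kept in brackets, genes past the test in red and the list median as a bar. The tuft cell list reaches 5.84 with 12 red points and a median of 0.82, and the neuroendocrine list runs from -3.77 with a median of -0.55 and no red point.

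Genes of the YAP1-positive state of SCLC were not called either. YAP1, a coactivator of the Hippo pathway, was detected on no H526 array (6.49 to 6.66) and read 8.62 in DMS114. None of 29 kept genes of this list was called, and the median was -0.07. The intermediate filament gene VIM read 7.25 to 7.39 in H526 against 13.84 in DMS114. ANXA2, an annexin, read 8.22 to 8.53 in H526 and at least 9.33 on every other array, and did not pass the test (-2.23, SE 0.96, adjusted p = 1).

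Epithelial genes had a median difference of 0.46 with 21 positive and 4 negative differences among 25 kept genes, and 1 was called. It was OVOL1, an epithelial zinc finger factor detected in no other line (at least 1.19-fold higher). H526 was the highest of the 9 lines for 3 of the 25 genes and the lowest for 1, beside 8.84% and 7.55% of all genes. CDH1 (E-cadherin) read 10.83 to 11.30 in H526, with 11.39 in another line, and OVOL2 read 10.21 to 10.41, above all other arrays with DMS153 next at 9.83. Neither passed (adjusted p = 1). Of 16 kept mesenchymal genes, the basement membrane collagen gene COL4A1 was called, with 8.83 to 9.12 in H526 against line means of 6.53 to 7.19 (difference 2.18, adjusted p = 0.00686, and 0.0791 under neqc).

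In the Notch list 1 of 25 kept genes passed, and with 0.847% of all genes called higher a single call in a list of this size is not read as a result about the list. This applies as well to the other lists with 1 or no call. MFNG, a glycosyltransferase that modifies Notch receptors, read 9.42 to 9.66 in H526 and at most 7.58 on other arrays (difference 2.86, SE 0.33, adjusted p = 0.00526). NOTCH1 read 8.44 to 8.73, above all other arrays, and did not pass (difference 1.26, adjusted p = 0.997). Among 35 kept receptor tyrosine kinases and ligands, EPHB3, an ephrin receptor, was called (7.71 to 7.89 against at most 7.12 elsewhere, difference 1.20, adjusted p = 0.0125). IGFBP5, an insulin-like growth factor binding protein, had the lowest difference of the list at 6.56 to 6.76 in H526 and up to 13.10 in other lines (-4.47, SE 2.08, adjusted p = 1).

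HOX genes, which record body-axis position, took values in both directions. H526 was the highest line for 5 and the lowest for 6 of 24 kept genes, beside 8.84% and 7.55% of all genes, and 2 were called, beside 0.847%. HOXA2 was called at 8.36 to 8.48 against line means of 6.65 to 7.37 (difference 1.53, SE 0.25, adjusted p = 0.0428), and lost the call without any one of H69, H128, H146, H187, H209, DMS53 or DMS153 (adjusted p of 0.0586 to 0.0937) and under neqc (0.227). HOXC11 was higher by 0.41 (adjusted p = 0.0284). HOXC6 at 10.82 to 11.11 and HOXC4 at 9.47 to 9.74 lay above all other arrays without passing. HOXB7 was undetected in H526 at 6.38 to 6.49 and was detected on all 56 other arrays (-1.81, SE 0.75, adjusted p = 1).

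DNA repair genes bear on the treatments of the study. None of the 61 kept genes was called in either direction, and the median difference was 0.03. H526 had the highest mean of the 9 lines for 10 of these genes, beside 8.84% of all genes, and all H526 arrays lay above the others for 5, beside 3.15% of all genes. CHEK1, the checkpoint kinase, read 10.63 to 10.95 against line means of 8.65 to 9.72 (difference 1.62, SE 0.38, adjusted p = 0.239). BLM, the Bloom helicase, read 9.39 to 9.62 against 7.36 to 8.50 (1.52, SE 0.36, adjusted p = 0.251). ATM, the double-strand break kinase, read 9.22 to 9.53 against 7.87 to 8.72 (1.01, SE 0.26, adjusted p = 0.331, and 0.0453 without H209). PARP1, the main target of veliparib, was lowest in H526 of the 9 lines with 10.92 to 11.15 against line means of 11.13 to 12.38, by -0.60 (SE 0.46, adjusted p = 1). PRKDC, the catalytic subunit of DNA-PK, read 9.27 to 9.85 in H526, inside the range of line means of 8.66 to 10.07. SLFN11, a replication stress factor tied to response to DNA damage, read 10.04 to 10.25, with lines from 6.54 to 10.80.

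Genes of platinum transport and thiol defence gave no call among 37. The metallothionein MT1G read 11.10 to 11.55 in H526, the highest line mean, followed by DMS153 at 11.07 (difference 2.93, SE 1.87, adjusted p = 1), and MT1E did the same at 11.54 to 11.93 (2.47, SE 1.88, adjusted p = 1). Metallothioneins are near-identical copies that a probe may not separate. GPX2, a glutathione peroxidase, read 7.15 to 7.30 against up to 11.77. In the RB and p53 list, the kept apoptosis genes and the interferon and antigen presentation list, the calls were 0 of 30, 0 of 33 and 1 of 34. The 1 was HLA-DRA, an MHC class II chain, at 7.73 to 8.08 against 6.91 to 7.23 (difference 0.81, adjusted p = 0.024), which did not pass under neqc (0.0868) or without H146 (0.0601), H187 (0.0504), DMS53 (0.0501) or DMS153 (0.0512). CASP6, an executioner caspase, was above all other arrays at 8.80 to 9.25 (difference 1.54, adjusted p = 0.272), and BCL2 read 9.94 to 10.16 within the range of the other lines.

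Markers of other cell types were looked at because MAP4K1, CD69 and other genes of blood cells were among the called. None of 10 kept leucocyte markers was called (median -0.03), a count that the share of 0.847% over all genes would give as well. The defining markers PTPRC and CD3E were detected on no H526 array. CD14 and ITGB2 were detected on all 7, and also on 55 and 56 of the 56 other arrays, with differences of -0.25 and 0.08. Of 13 kept fibroblast markers none was called, with COL1A1, COL1A2, COL3A1 and DCN undetected in H526, and THY1 above all other arrays at 9.11 to 9.48 (difference 2.02, adjusted p = 1). None of 6 kept squamous and luminal airway markers was called, and KRT5 and SFTPC were detected on no H526 array.

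Lower genes were few under the test. The single gene called lower was BORCS7, a subunit of the lysosome-positioning BORC complex, which read 7.21, 7.04, 7.32, 7.36, 7.23, 7.21 and 7.16 in H526 and at least 7.66 on every other array. That probe differed by -0.84 (SE 0.14, adjusted p = 0.046), while a second BORCS7 probe differed by -1.03 and did not pass (adjusted p = 0.4). The called probe did not pass without any one of H69, H128, H146, H209, DMS53, DMS114 or DMS153 (0.0517 to 0.103) nor under median scaling (0.0591). That probe also missed the threshold under the stricter filter (0.429), with line as a random block (0.37) and with an ordinary linear model (0.0746). Its call was lost as well without a filter (0.0563) and without Con, A5, C+0 or C+5 (0.0546 to 0.0774). Larger gaps that missed the threshold were picked out after their values were seen. HSPB1, the small heat shock protein HSP27, read 7.93, 7.76, 7.85, 8.01, 7.97, 7.72 and 8.03 in H526 and at least 10.27 on each of the 56 other arrays. The difference of HSPB1 was -3.32 (SE 0.60, adjusted p = 0.0653), and it was past the threshold in untreated cells alone (adjusted p = 0.0406) and under neqc (0.0329). PBX3, a HOX cofactor, read 6.82 to 7.23 against at least 8.71 elsewhere (-2.99, SE 0.64, adjusted p = 0.155, and 0.0462 under neqc). CMBL, a hydrolase, read 7.07 to 7.22 against at least 8.57 (-2.42, SE 0.67, adjusted p = 0.439).

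In untreated cells, 181 probes were higher (0.589%) and 1 lower (0.00326%) in H526, and 175 of these 182 were among the 228 called over all conditions. IRAG2, POU2F3, AVIL, RGS13 and ANXA1 passed in the untreated cells as well. SH2D6 (adjusted p = 0.0993) and GNG13 (adjusted p = 0.164) did not.

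Whether H526 responded differently was asked with the change from Con in each line, H526 against the other 8. With A5, 14 probes departed upward (0.0456%) and 29 downward (0.0944%), with C+0 1 downward (0.00326%), and with A50, C+5, C+50 and gamma 0 by limma. For A5 the split was 1 upward and 7 downward under median scaling, and 2 upward and 0 downward under neqc. Unadjusted p-values below 0.05 were most frequent for A5 (2787 probes) and C+0 (2564) and least frequent for gamma (1198), with 1680 for A50, 1505 for C+5 and 1564 for C+50. All 6 changes of a line share its 1 Con array and are not independent.

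YWHAE, a 14-3-3 adaptor, had the largest departure with A5. It changed by 0.68 in H526, from 8.36 to 9.04, and by -0.07 to 0.13 in the other lines (departure 0.68, SE 0.09, adjusted p = 0.00196). The other 5 treated H526 arrays of YWHAE read 8.76 to 8.91, so its Con array was the low one of the 7. PABPC1, the poly(A)-binding protein, went from 10.54 to 9.73 with A5 and read 10.53 after radiation (departure -0.64, adjusted p = 0.00869). HAT1, a histone acetyltransferase, went from 9.55 to 8.87 (departure -0.63, adjusted p = 0.00774), and GGCT, an enzyme of glutathione breakdown, from 9.31 to 8.76 (departure -0.62, adjusted p = 0.00869). None of these 4 genes passed under neqc (adjusted p of 0.18 to 0.283), and of the 4 PABPC1 alone passed under median scaling (0.0496, against 0.0531 to 0.115).

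Of the 43 probes called with A5, the Con array of H526 was at the far end of its 7 arrays in 27 and the A5 array at the other end in 31. The change had the same sign under all 6 treatments in 36. With the mean of the other treated arrays in place of Con, an alternative chosen after seeing the data, 0 probes were called for A5 by limma, 1461 had an unadjusted p below 0.05 and none of the 43 was called. Without H146 21 probes were called, without H128 27 and without DMS53 70. The part of the single Con array in this result was not tested separately.

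**Figure D5:**
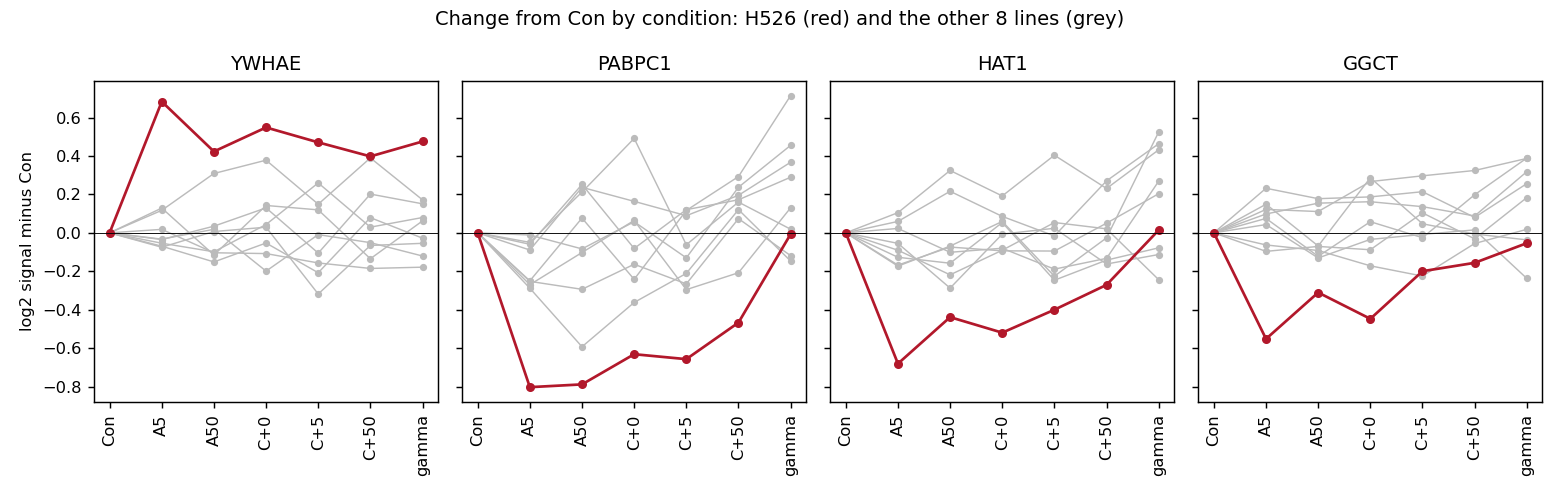
Change in log2 signal from Con (vertical axis) in the 7 conditions (horizontal axis) for the 4 genes with the largest called departures with A5, H526 in red and each other line in grey. With A5, H526 changes by 0.68 for YWHAE, -0.8 for PABPC1, -0.68 for HAT1 and -0.55 for GGCT. In the separate radiation arm PABPC1, HAT1 and GGCT are near their Con level.

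Of the tuft cell genes called above, 1 departed with treatment. The change from Con in H526 was between -0.14 and 0.19 for POU2F3 and between -0.19 and 0.08 for IRAG2, and no departure of either was called. RGS13 departed by -0.43 with A5 (adjusted p = 0.0449), and its Con array at 9.42 was the highest of the 7. ANXA1 was lower than Con under every treatment in H526, by -0.59 with A50 (departure -0.61, adjusted p = 0.0555). MYCN changed by at most 0.23, after radiation, and DDX1 by at most 0.09.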

How the data were processed

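RNA of 9 SCLC cell lines in 7 conditions was hybridised to Illumina HT-12 v4 BeadChips, 1 array per line and condition. Exposure times differ between the labels and the methods and were not used. The deposited tables hold each array's intensity per probe, both as exported and after quantile normalization by the authors in GenomeStudio 2010.3, with the deposited detection p-value. For the main setting the exported intensity was quantile-normalized anew and taken to log2, and the largest departure of any value from the deposited normalized one was 0.016. No background was subtracted. A probe entered the tests if 4 or more of the 63 arrays detected it (detection p below 0.05). The 7 arrays of a line were averaged and H526 was compared with the other 8 lines in limma 3.58.1 (lmFit and eBayes, R 4.3.3, Benjamini-Hochberg over 30716 probes, threshold 0.05). A permutation of 1 line against 8 cannot go below p = 0.111, so none was used. Responses were each line's treated minus Con array, tested in the same way. Where a probe was not detected on any of the 56 other arrays, fold differences are lower bounds against the lowest detected signal of each array, or the probe's own signal if higher.

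Gene names came from the platform annotation, updated to current symbols. Of the 30716 kept probes, 21620 carried 1 symbol (15460 genes), and 47 of the 228 called probes carried none or several and are not named. In lists a gene was read from its probe of highest mean signal. The text names POU2F3 and MYCN, up to 15 called genes per direction with the largest difference and no overlap of arrays, a set of genes of prior interest, up to 6 members per list and up to 4 per treatment, beside genes said to be chosen after their values were seen or named as examples. The members and lists were chosen with earlier results of these data known. Promoter windows came from RefSeq (GRCh38.p14). The alternatives were the authors' normalized values, neqc (offset 16), median scaling, other filters, an ordinary linear model, each line or condition left out, and line or condition as a block. Scripts were tested on simulated data. Tables and figures were made with Python 3.11.15, pandas 2.3.3, numpy 2.4.6 and matplotlib 3.10.9. The number of arrays limits the precision.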

Additional observations from a re-analysis of the deposited data

Results flagged for a closer look

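In 8 of 139 genes checked, 1 of the 7 H526 arrays stood apart from the other 6, and chance flags about 1 group in 20. AVIL read 11.40 after radiation with the other arrays at 11.10 to 11.22. SESN1, a p53 target, read 8.28 and ATM 9.22 after radiation, below 8.50 to 8.62 and 9.40 to 9.53. H2AX, the histone variant phosphorylated at DNA breaks, read 8.99 in the untreated cells, below 9.33 to 9.46. CCND2 read 6.28 and COL1A2 6.37 with C+0, POLR3G read 7.44 with C+50 and OVOL2 read 10.41 with C+5. COL1A2 and CCND2 were not detected on any H526 array, so both gaps lie below the lowest detected signal.

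The response of H526 departed from that of the other 8 lines at 43 probes with A5 and at 1 probe with C+0, by the limma test of the difference. The departures of the named genes with A5 were 0.68 for YWHAE, -0.64 for PABPC1, -0.63 for HAT1 and -0.62 for GGCT. They rest on 1 Con and 1 A5 array of H526.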

How the results depend on the processing

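The count of 228 probes was 201 to 239 with each line left out and 222 to 234 with each condition left out. The stricter filter (detection p below 0.01 on at least 32 arrays) kept 42 of the 228 called probes, and 6 of these were still called. In untreated cells it kept 37 of 182, with 6 still called (161 to 184 with a line left out). It gave 594 in place of 903 probes outside the range of the other arrays, 450 above and 144 below. For A5 it gave 21. Single arrays as units with condition as the replicate block gave 18198 probes, since arrays of 1 line then count as replicates (their consensus correlation was 0.863), and line as a random block gave 787, with 186 of the 228 among them. Conditions are not replicate numbers. They match arrays between lines, and within a line each treated array was paired with Con for the response tests. For A5, 43 probes became 2 with neqc, 8 with median scaling, 0 with the other treated arrays in place of Con and 21 to 70 with a line left out. A50 gave 4 with median scaling and 5 without a filter in place of 0. For C+0 the 1 probe became 0 with neqc, median scaling, the stricter filter or without Con, and 0 to 2 with a line left out. C+50 gave 1 without a filter, and gamma 3 without Con.

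With each line left out, the difference changed sign without DMS114 for YAP1 (-0.20 to 0.11), EMP1 (-0.73 to 0.03), DCN (-0.68 to 0.01), COL3A1 (-0.66 to 0.04) and LUM (-0.46 to 0.05), and without H187 for SLC34A2 (-0.26 to 0.02), none of them called. NBAS (0.0569), COL4A1 (0.0564), PLCG2 (0.0593), SOX9 (0.0897), HOXA2 (0.176), HLA-DRA (0.362) and BORCS7 (0.429) missed the threshold under the stricter filter. CALD1 passed without H128 (0.0228), CASP6 without DMS153 (0.0205), MYCNOS without H69 (2.86e-05) and HES2 without DMS114 (7.43e-05). The median of all probes was -0.019, and -0.016 with median scaling and -0.042 with neqc. BeadChip as a block was not run because the sources used here name no chip per array. Signals near background limit the size of most differences, and neqc gave 5.02 for POU2F3 in place of 3.13 and 7.94 for IRAG2 in place of 5.84.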

Other observations

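Genes called in H526 often lay beside each other on a chromosome, a pattern looked for after it had been seen. Of 147 called genes, 39 (26.5%) had another called gene within 3 places in the order of kept genes, against 754 of 15262 other genes (4.94%). There were 21 such pairs, and 12 had no kept gene between. On chromosome 21, TFF1, TMPRSS3 and UBASH3A followed each other with differences of 1.73, 5.08 and 0.71, while the adjacent TFF3 read 12.19 in H526 and 6.55 to 13.05 in the other lines, and RSPH1 on the far side differed by -0.08. On chromosome 20, TFAP2C and BMP7 were adjacent, with RBM38 next among the called. On chromosome 11, ARHGAP20 was adjacent to POU2AF2, and on chromosome 17 OMG was adjacent to EVI2A. Further adjacent pairs were ELFN2 and MFNG, PSD2 and NRG2, and ADGRF5 and ADGRF1. SDHAP2 and SDHAP1 also paired, and as near-identical copies they may share signal.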
